A study of Mus musculus with 7 samples.

Results

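The expression of 10 genes was measured in microglia, macrophages that live in the brain, with and without a conditional deletion of the gene Srgap2. Their products cap, sever or stabilise actin filaments or, in the case of Mtpn, inhibit capping protein. The members were chosen by gene symbol: Capza1, Capza2, Capzb, Mtpn, Gsn, Capg, Svil, Eps8, Add1 and Add3. All 10 had a row among the 23420 genes of the deposited count table, and all 10 were among the 11991 genes with enough counts to be tested. The group called cKO was 4 mice with floxed Srgap2 alleles (genotype Tmem119creErt2+ Srgap2f/f), and the group called WT was 3 Srgap2f/f littermates without the recombinase. Tmem119creErt2 is an inducible recombinase made by microglia, and both groups received tamoxifen by gavage, 75 ug per g on day 8 and again on day 10 after birth. On day 30 cells of the cortex that stained for CD11b and CX3CR1 with low CD45 were sorted, and their poly(A) RNA was sequenced. Each library came from a separate numbered mouse. Recombinase and Srgap2 deletion came together in cKO, so their effects cannot be told apart.

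Actin filaments grow at the barbed end and lose subunits at the pointed end. Capping protein, a dimer of an alpha subunit (Capza1 or Capza2) and the beta subunit Capzb, closes the barbed end and keeps new branches short, and myotrophin (Mtpn, also called V-1) binds capping protein and keeps it off filaments. Gelsolin family proteins sever or cap filaments in response to calcium, and adducins cap barbed ends where filaments meet the spectrin skeleton. In microglia, actin turnover drives the constant movement of the processes. Srgap2 encodes an F-BAR protein that bends membranes.

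Library totals were 27025270 to 35213711 counts for cKO and 27016173 to 35707304 counts for WT. Levels are given in CPM, counts scaled to a common library size with TMM factors, and values of single mice are listed by replicate number, cKO mice 1 to 4 and WT mice 1 to 3. Srgap2 itself had 344, 257, 275 and 212 CPM in the cKO mice, against 979, 691 and 693 CPM in the WT mice, with no overlap between the groups. Its RNA was thus lower in cKO but not absent. Summed over 11 microglial markers, levels were 51218 to 58484 CPM for cKO and 58579 to 61497 CPM for WT, and of these markers Tmem119, whose locus carries the recombinase, fell (log2 fold change −0.82, SE 0.15, adjusted p = 0.046), a call lost in 5 of the 7 cases with a library left out, without cKO mice 2 and 3 and without each WT mouse (adjusted p up to 0.22). The sum includes Tmem119 itself, at 3005 to 4664 CPM in cKO and 6168 to 7212 CPM in WT. The gap between the groups was narrower in the sum than in Tmem119, so the sum shows no gap for the other markers. In bulk RNA, fewer cells of a type and less RNA per cell cannot be told apart. Libraries leaned differently with GC content: the rank correlation across genes between a library's deviation and transcript GC content was −0.52, 0.17, −0.42 and 0.44 for the cKO mice and −0.019, 0.069 and 0.24 for the WT mice. Xist, an RNA of the inactive X chromosome, had 0.31, 69.4, 0 and 144 CPM in the cKO mice, against 0.66, 243 and 127 CPM in the WT mice.

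Of the 10 members, 1 rose in cKO, the capping protein inhibitor Mtpn, and 9 did not pass the threshold, an adjusted p of 0.05 in edgeR's quasi-likelihood test. Over all genes tested, 0.317% rose, 0.0417% fell and 0.359% did either. At an unadjusted p under 0.05 stood 6 members, all higher in cKO, against 9.65% of all genes on that side and 16.5% on either. The log2 fold change was above 0 for 9 of the 10 members and their median was 0.41, against 48.1% of genes above 0 and a median of −0.01 over all 11991 genes. Groups did not overlap, with every cKO library above every WT library, for Capza1, Capzb, Mtpn and Add1, which is 4 of 10 members, against 8.86% of all genes. No member had every cKO library below every WT library, which 7.2% of all genes had, so 4 of 10 members stood apart in either direction against 16.1%. Svil was the member with a lower mean in cKO. The members were chosen with earlier results of these data known, so these shares are a description and not those of an independent list.

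**Figure D1:**
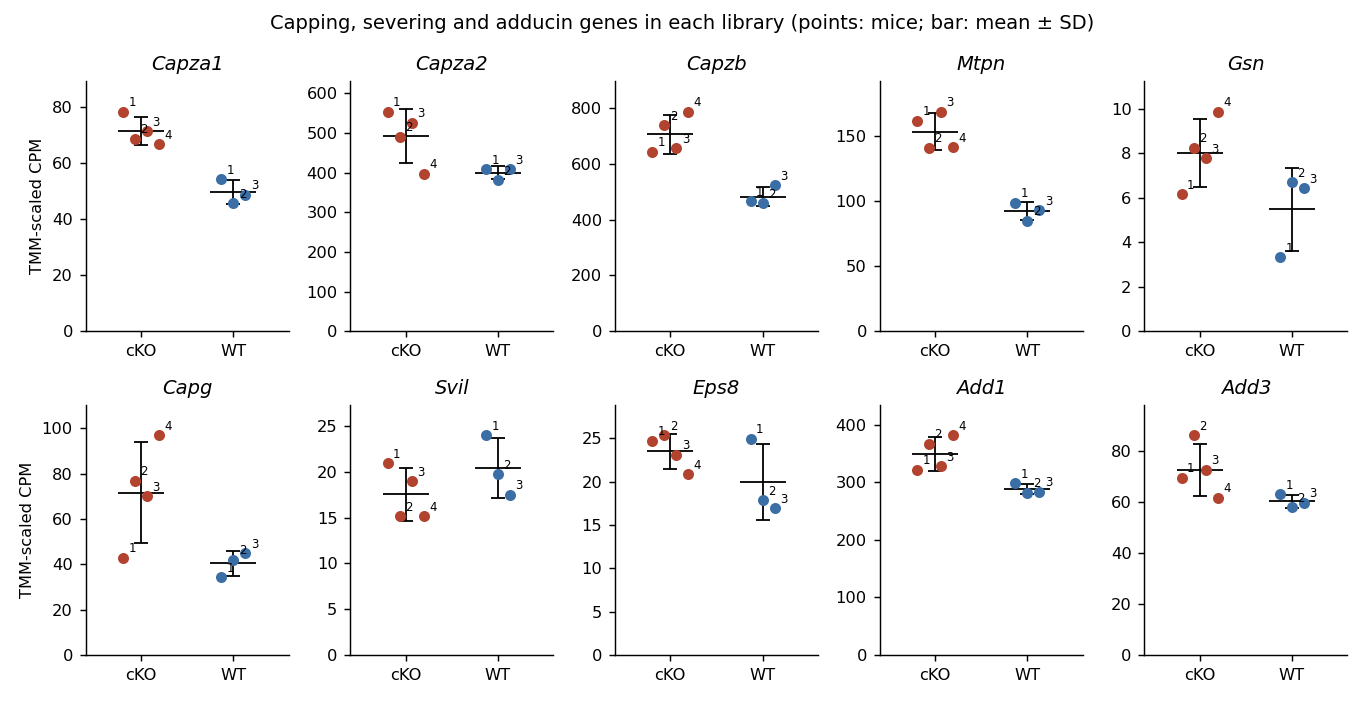
TMM-scaled CPM of the 10 members in each library, with cKO on the left and WT on the right of each panel; points are mice, numbered by replicate, and bars are the mean ± SD. The cKO points of Mtpn lie between 141 and 169 CPM and its WT points between 84.9 and 98.7 CPM, while the groups of Gsn, Capg, Svil, Eps8, Capza2 and Add3 overlap.

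The stretch of 250 bases before the annotated start is shown for the capping protein subunits and their inhibitor, since these genes make the called inhibitor and the proteins it binds. The sequences are those of RefSeq on GRCm38.p6, another build than the GRCm39 of the counts, and 8 of the 10 members had an entry. Capitals mark GC boxes (GGGCGG on either strand), which factors of the Sp family bind.
Mtpn: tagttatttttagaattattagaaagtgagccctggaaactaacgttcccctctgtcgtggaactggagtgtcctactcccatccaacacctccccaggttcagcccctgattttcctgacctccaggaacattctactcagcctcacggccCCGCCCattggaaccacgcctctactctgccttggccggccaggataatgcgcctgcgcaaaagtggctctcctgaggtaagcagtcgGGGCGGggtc
Capza1: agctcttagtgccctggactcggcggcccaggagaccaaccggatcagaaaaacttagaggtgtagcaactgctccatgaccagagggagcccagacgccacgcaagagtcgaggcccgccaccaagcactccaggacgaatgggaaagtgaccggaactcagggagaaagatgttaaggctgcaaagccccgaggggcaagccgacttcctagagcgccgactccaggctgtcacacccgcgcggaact
Capza2: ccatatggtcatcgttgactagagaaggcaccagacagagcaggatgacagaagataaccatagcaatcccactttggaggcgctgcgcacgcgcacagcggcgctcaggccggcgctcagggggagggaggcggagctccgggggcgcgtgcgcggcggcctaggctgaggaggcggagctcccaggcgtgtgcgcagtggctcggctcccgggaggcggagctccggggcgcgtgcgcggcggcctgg
Capzb: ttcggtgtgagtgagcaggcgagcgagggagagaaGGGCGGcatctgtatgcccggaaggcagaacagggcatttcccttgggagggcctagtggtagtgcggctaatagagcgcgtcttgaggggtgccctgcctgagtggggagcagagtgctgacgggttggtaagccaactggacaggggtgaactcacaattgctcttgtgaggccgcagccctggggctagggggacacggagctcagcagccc

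The Mtpn stretch lies at chr6:35539889-35540138 on the minus strand and that of Capza1 at chr3:104864506-104864755 on the minus strand. Those of Capza2 and Capzb lie on the plus strand at chr6:17636760-17637009 and chr4:139193861-139194110. Mtpn held 2 GC boxes that did not overlap, Capzb held 1, and Capza1 and Capza2 held none, against 32.7% of 32851 promoter windows of this length with at least 1. A CArG box, the motif bound by the actin-regulated factor Srf, a TATA box (TATAAA) and the letters GAGGAAGT bound by the microglial factor Spi1 were searched on both strands too. No match to these 3 motifs stood in the 4 stretches, where 1.47%, 12.4% and 2.44% of all windows hold the CArG box, the TATA box and the Spi1 letters. A match to letters is a description and not a binding site.

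Capzb, the beta subunit that every capping protein dimer needs, was at 643, 738, 656 and 787 CPM in the cKO mice, against 466, 459 and 524 CPM in the WT mice. The lowest cKO library stood above the highest WT library. The log2 fold change was 0.55 (SE 0.11, 95% interval 0.30 to 0.80), and the adjusted p of 0.070 missed the threshold. Capza1, one of the alternative alpha subunits, was at 78.5, 68.9, 71.5 and 67.0 CPM in the cKO mice, against 54.3, 45.9 and 48.8 CPM in the WT mice. These groups did not overlap either, with a log2 fold change of 0.52 (SE 0.11, 95% interval 0.28 to 0.77, adjusted p = 0.075). The Capza1 count carries a doubt about assignment: 73.8% of the 50-base windows of its transcript, 2320 of 3144, also occur in transcripts of other genes, 2305 of them in the pseudogene Gm3608. The counting rule is not given in the sources used here, so reads from that stretch may have been shared out or dropped, and the Capza1 level is uncertain.

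Capza2, the other alpha subunit, had no window in common with another gene. Its level was 553, 491, 526 and 397 CPM in the cKO mice, against 408, 380 and 409 CPM in the WT mice. Replicate 4 of cKO was within the WT range and the other cKO libraries were above it. The log2 fold change was 0.30 (SE 0.12, 95% interval 0.030 to 0.57, adjusted p = 0.25). Capza3, an alpha subunit of the testis, had 0 counts in the 7 libraries, which allows a level of up to 0.0140 CPM over all of them.

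Mtpn encodes the small ankyrin-repeat protein that holds capping protein away from barbed ends. It had 4673, 4169, 4636 and 4620 counts in the cKO mice and 2702, 2674 and 3329 counts in the WT mice. Scaled, these were 162, 141, 169 and 142 CPM in cKO, against 98.7, 84.9 and 92.9 CPM in WT. The gap between the groups was wider than the range within either. Mtpn averaged 153 ± 14.1 CPM over the cKO mice (SD, n = 4) and 92.2 ± 6.95 CPM over the WT mice (SD, n = 3), a 1.66-fold rise (log2 fold change 0.73, SE 0.11, 95% interval 0.49 to 0.98, adjusted p = 0.025). Mtpn had the 17th smallest p of the 11991 genes. The call was lost when a library was left out in 5 of 7 cases, namely cKO mouse 2 (adjusted p = 0.097), cKO mouse 3 (0.11), WT mouse 1 (0.061), WT mouse 2 (0.25) and WT mouse 3 (0.11). The log2 fold change stayed between 0.67 and 0.79 in all 7 cases. Over all genes, 4 to 142 passed in these cases, against 43 with every library kept. The reason for the lost calls was not tested.

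The level of the inhibitor relative to its target was compared per kb of transcript, as a description with no test. The ratio of Mtpn to Capza2 was 0.187, 0.184, 0.206 and 0.229 in the cKO mice, against 0.155, 0.143 and 0.146 in the WT mice, and these groups did not overlap. The ratio of Mtpn to Capzb was 0.108, 0.0821, 0.111 and 0.0773 in the cKO mice, against 0.0910, 0.0794 and 0.0762 in the WT mice. Here replicates 2 and 4 of cKO lay within the WT range, and these were the cKO libraries with the highest Capzb. The ratio of Capza2 to Capzb averaged 0.475 ± 0.106 (SD, n = 4) in cKO and 0.556 ± 0.0319 (SD, n = 3) in WT, and was lowest in cKO replicate 4, at 0.338. The ratios to Capzb join transcripts of unlike GC content, 51.9% for Capzb against 40.1% for Mtpn and 39.3% for Capza2. Replicates 2 and 4 were also the cKO libraries with a positive correlation with GC content. The part of GC content in the ratios was not tested.

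**Figure D2:**
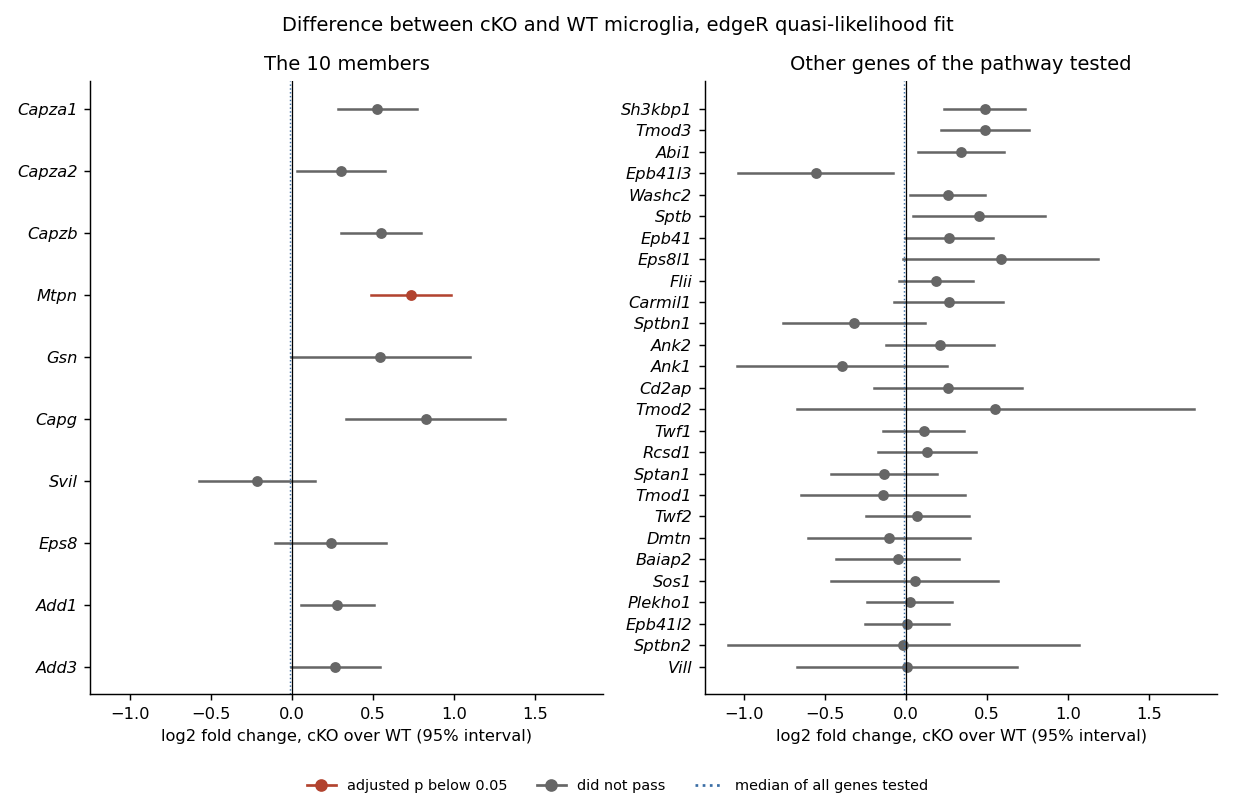
Log2 fold change of cKO over WT with its 95% interval for the 10 members on the left and for 27 other genes of the pathway on the right; red marks an adjusted p below 0.05 and the dotted line is the median of all genes tested. Mtpn, at 0.73, is the gene in red, and the interval of Svil, at −0.22, reaches from −0.57 to 0.14.

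Gsn and Capg, of the gelsolin family, had the largest standard errors among the members. Capg, which caps barbed ends in macrophages without severing filaments, was at 42.8, 76.8, 70.0 and 96.8 CPM in the cKO mice, against 34.4, 41.9 and 44.9 CPM in the WT mice. Replicate 1 of cKO lay inside the WT range and the other cKO libraries lay above it. The log2 fold change, 0.83, was the largest of the 10 members, but its SE was 0.22, against 0.11 for Mtpn, and it did not pass (95% interval 0.34 to 1.31, adjusted p = 0.13). Without cKO replicate 1 the log2 fold change was 0.99 and Capg passed (adjusted p = 0.014), in a fit where 142 genes passed in place of 43. Without cKO replicate 4, its highest library, the log2 fold change was 0.64 (adjusted p = 0.15). Capg passed in none of the other cases with a library left out (adjusted p up to 0.39).

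Gsn, gelsolin itself, which severs filaments and caps the new end, was scarce in these cells. It was at 6.16, 8.26, 7.79 and 9.87 CPM in the cKO mice, against 3.33, 6.70 and 6.42 CPM in the WT mice. WT replicate 1 was the lowest, with 91 counts, and the groups overlapped (log2 fold change 0.55, SE 0.25, 95% interval −0.0043 to 1.10, adjusted p = 0.31). Without WT replicate 1 the log2 fold change was 0.29. Svil, supervillin, which ties actin and myosin to the membrane, was at 20.99, 15.2, 19.0 and 15.2 CPM in the cKO mice, against 24.0, 19.7 and 17.5 CPM in the WT mice. These groups overlapped (log2 fold change −0.22, SE 0.16, adjusted p = 0.56), and leaving out WT mouse 1 gave −0.08, while leaving out cKO mouse 1 gave −0.33.

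Gsn is abundant in oligodendrocytes and fibroblasts and Capg in monocytes and other macrophages, so markers of those cells are given beside them. The cells had been sorted for CD11b, CX3CR1 and low CD45. The summed level of 10 oligodendrocyte lineage markers ranged from 225 to 332 CPM for cKO and from 226 to 257 CPM in WT, and within cKO it had the same order over the libraries as Gsn, an order that Capzb, Add1 and Capg also had. Within WT the order differed: the sums were 239, 226 and 257 CPM, and the library lowest in Gsn, WT replicate 1, was not the lowest in these markers. Border-associated macrophage markers, 8 of 8 found, ranged from 69.5 to 135 CPM for cKO and from 74.5 to 115 CPM in WT, and the highest cKO value was that of replicate 1, the cKO library with the lowest Capg. Monocyte and neutrophil markers, 10 of 11 found, ranged from 8.37 to 10.4 CPM for cKO and from 5.96 to 11.1 CPM in WT, with Retnlg and Lcn2 at 0 counts. Fibroblast and meningeal markers, 6 of 6 found, ranged from 0.173 to 1.99 CPM for cKO and from 0.190 to 0.614 CPM in WT, with Lum at 0 counts. The part of these cells in the values of Gsn and Capg was not tested.

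Eps8, which caps barbed ends and bundles filaments, was at 24.7, 25.3, 23.1 and 20.8 CPM in the cKO mice, against 25.0, 17.9 and 16.9 CPM in the WT mice. WT replicate 1 stood with the cKO libraries and the other WT libraries stood below all of them. The log2 fold change was 0.24 (SE 0.16, 95% interval −0.10 to 0.58, adjusted p = 0.48), and it was 0.43 without WT replicate 1 (adjusted p = 0.24), 0.16 without WT replicate 2 and 0.13 without WT replicate 3.

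Add1, the widely expressed alpha adducin, was at 321, 367, 328 and 381 CPM in the cKO mice, against 298, 281 and 284 CPM in the WT mice. The groups did not overlap, but the gap was narrow and the difference did not pass (log2 fold change 0.28, SE 0.10, 95% interval 0.054 to 0.51, adjusted p = 0.21). Add3, gamma adducin, was at 69.4, 85.9, 72.4 and 61.5 CPM in the cKO mice, against 62.8, 57.8 and 59.5 CPM in the WT mice. Replicate 4 of cKO was within the WT range (log2 fold change 0.27, SE 0.12, 95% interval −0.0055 to 0.54, adjusted p = 0.31), and leaving out cKO mouse 2 gave 0.17. The ratio of Add1 to Add3 per kb averaged 4.77 ± 0.848 (SD, n = 4) in cKO and 4.66 ± 0.0635 (SD, n = 3) in WT. The beta adducin Add2, known from red blood cells and neurons, had 25 counts over the 7 libraries and was not tested.

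Levels of different members were set side by side per kb of the longest coding transcript. Capzb was the highest, at 415 ± 40.3 CPM per kb (SD, n = 4) in cKO and 284 ± 20.8 CPM per kb (SD, n = 3) in WT. Capza2 followed at 194 ± 26.9 CPM per kb in cKO and 157 ± 6.45 CPM per kb in WT, and Add1 at 76.8 ± 6.40 CPM per kb in cKO and 63.3 ± 1.97 CPM per kb in WT. Capg, at 51.1 ± 15.9 CPM per kb in cKO and 28.9 ± 3.87 CPM per kb in WT, and Mtpn, at 38.7 ± 3.57 CPM per kb in cKO and 23.3 ± 1.76 CPM per kb in WT, overlapped each other in both groups. Below them came Capza1, uncertain as said above, at 22.4 ± 1.58 CPM per kb for cKO and 15.6 ± 1.35 CPM per kb for WT. Add3 was next, at 16.3 ± 2.29 CPM per kb for cKO and 13.6 ± 0.577 CPM per kb for WT, and its highest WT value, 14.2, lay just under the lowest of Capza1, 14.4. Eps8 followed at 5.14 ± 0.437 CPM per kb in cKO and 4.36 ± 0.962 CPM per kb in WT. Gsn and Svil were the lowest, between 1.25 and 3.72 CPM per kb in all 7 libraries, and their order was not settled, since they overlapped in both groups.

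**Figure D3:**
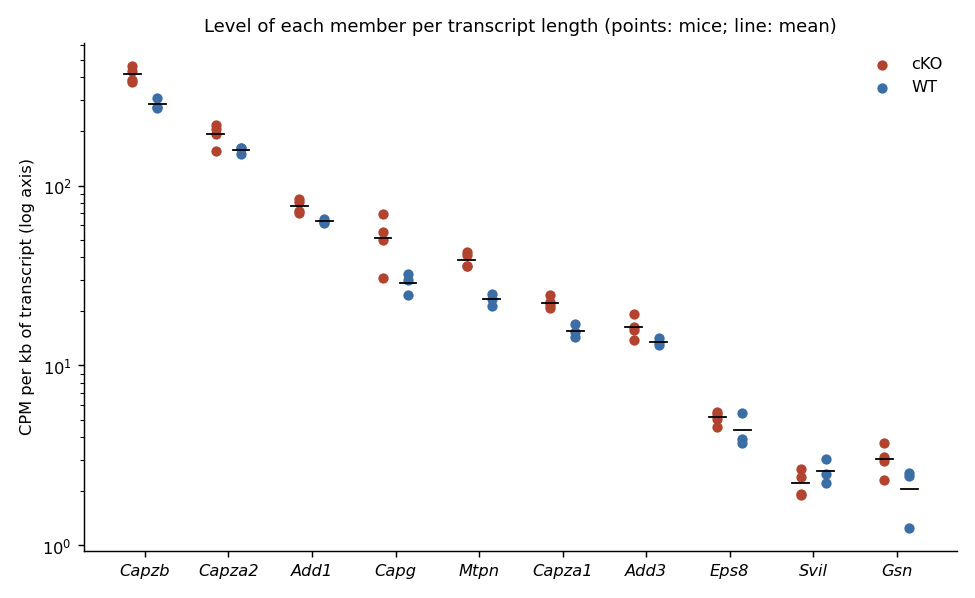
Level of each member in CPM per kb of its longest coding transcript on a log axis, ordered by the WT mean; points are mice, cKO left of WT, and lines are means. Capzb and Capza2 stand highest, at 284 and 157 CPM per kb in WT, and Svil and Gsn lowest.

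Among the cKO libraries, 6 of the 10 members were ordered by replicate in one of 2 opposite ways. Capzb (51.9% GC), Add1 (51.6%), Capg (57.1%) and Gsn (57.1%) all had the order replicate 1, 3, 2, 4 from low to high, which was also the order of the libraries' correlation with GC content given above. Capza1 (43.0%) and Capza2 (39.3%) had the reverse order. Svil, at 51.0%, was also highest in replicate 1, against the other members of that GC content. Mtpn (40.1%) had neither order. In WT the correlation with GC content rose from replicate 1 to replicate 3. Of the 6 members named for an order in cKO, Capg rose that way in WT. The others followed neither that order nor its reverse there. The share of all genes with either order was not counted, and the part of GC content in these orders was not tested. When each count was offset for GC content and length of the transcript, Capzb (adjusted p = 0.0059), Capza1 (adjusted p = 0.0098), Capg (adjusted p = 0.017) and Add1 (adjusted p = 0.045) passed as well as Mtpn, at log2 fold changes of 0.54, 0.53, 0.82 and 0.31, close to those without offsets. In that fit 659 genes passed, 5.5% of those tested, against 43 without offsets. The cKO libraries with Xist, replicates 2 and 4, were also those with a GC correlation above 0. In WT, replicate 1 had little Xist (0.66 CPM) and a correlation just below 0 (−0.019). WT replicates 2 and 3 had Xist and correlations above 0. The presence of Xist and the sign of the GC trend thus cannot be told apart in either group.

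With log2 CPM of Xist as a covariate, Capzb, Capza1, Capg and Gsn passed besides Mtpn, and 1056 genes, 8.81%, passed in all. With DESeq2 in place of edgeR, Capzb, Capza1 and Capg passed besides Mtpn, among 538 genes, 4.49% of those tested. The direction of the estimates did not turn in any alternative for these members, and the plot of the settings shows this for all of them but Gsn.

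**Figure D4:**
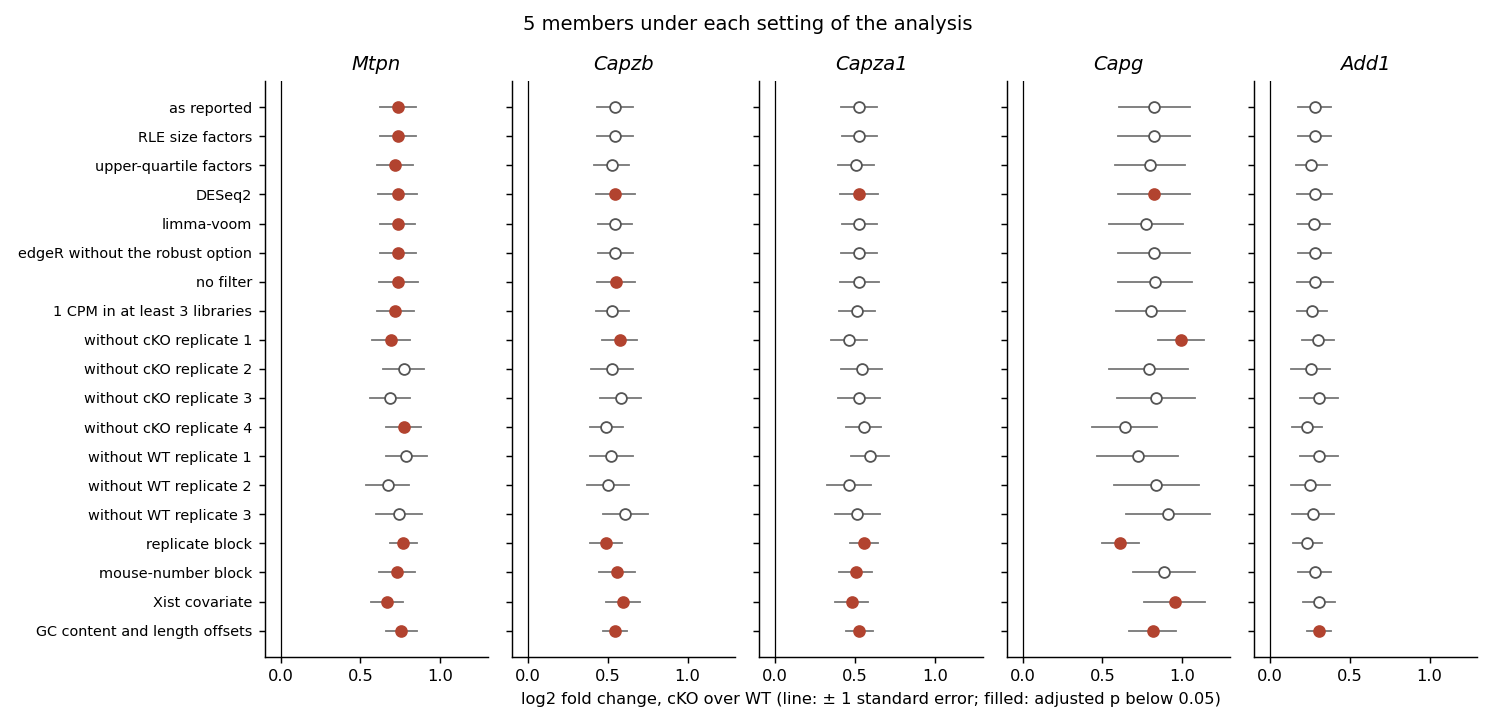
Log2 fold change of cKO over WT for 5 members under each setting of the analysis, with lines of ± 1 standard error; filled points have an adjusted p below 0.05. Mtpn keeps a value between 0.67 and 0.79 throughout, and Capg ranges from 0.61 to 0.99.

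The mouse numbers in the labels fall into a lower and a higher run, and each run held both groups, with 2 cKO and 1 WT mice in the lower run and 2 cKO and 2 WT mice in the higher run. The labels call the WT mice littermates but do not say that a run marks a litter or batch. The difference in mean log2 CPM of Mtpn was 0.61 in the lower run and 0.80 in the higher run. That of Capzb was 0.56 and 0.55, that of Capza1 0.44 and 0.55, and that of Capg 0.74 and 0.92, each with the lower run first. With the run as a block, Capzb (adjusted p = 0.039) and Capza1 (adjusted p = 0.042) passed besides Mtpn, and 1.42% of all genes did. Gsn differed by 1.09 in the lower run, with its 1 WT mouse, and by 0.42 in the higher run. Eps8 differed by 0.0025 in the lower run and by 0.33 in the higher run, and Svil was lower in cKO in both, by values of −0.43 and −0.13.

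Beyond the members, 41 further genes of capping, severing and the adducin and spectrin skeleton were listed, of which 27 were tested. This list too was chosen with earlier results of these data known. Among these, 0 rose and 0 fell in edgeR's test. At an unadjusted p under 0.05 stood 6 of 27, or 22.2%, against 16.5% of all genes. Sh3kbp1 and Tmod3 passed with DESeq2, which called 4.49% of all genes, and 0 listed genes passed with limma-voom. Their median log2 fold change was 0.11, and 19 of 27 (70.4%) were above 0, against 48.1% of all genes. Every cKO library stood above every WT library for 5 of 27 (18.5%) and below for none, against 8.86% of all genes above and 16.1% either way. Sh3kbp1, an adaptor that binds capping protein, was at 123, 121, 127 and 104 CPM in the cKO mice, against 94.8, 81.0 and 79.2 CPM in the WT mice. The groups did not overlap (log2 fold change 0.48, SE 0.12, adjusted p = 0.10). Tmod3, a tropomodulin that caps the pointed end, was at 107, 90.9, 102 and 80.0 CPM in the cKO mice, against 73.0, 67.1 and 63.4 CPM in the WT mice. It too stood apart in every library without passing (log2 fold change 0.48, SE 0.12, adjusted p = 0.12). Sh3kbp1 and Tmod3 also passed with the Xist covariate and with the GC content and length offsets, and Abi1 passed with those offsets (adjusted p = 0.032).

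Of the other 4 listed genes named for a small p, Abi1, Washc2 and Sptb were higher in every cKO library than in any WT library, and the groups of Epb41l3 overlapped. Abi1, a subunit of the WAVE complex that also binds Eps8, averaged 136 ± 17.6 CPM for cKO (SD, n = 4) and 108 ± 6.35 CPM for WT (SD, n = 3; log2 fold change 0.34, SE 0.12, adjusted p = 0.20). Washc2, listed as Fam21 in the table, the WASH complex subunit that carries a capping protein binding motif, averaged 95.1 ± 6.44 CPM for cKO and 79.6 ± 4.48 CPM for WT (0.26, SE 0.10, adjusted p = 0.25). Sptb, a beta spectrin, averaged 7.04 ± 0.807 CPM for cKO and 5.17 ± 0.912 CPM for WT (0.45, SE 0.19, adjusted p = 0.25). Epb41l3, a membrane skeleton protein of the 4.1 family, averaged 4.14 ± 0.997 CPM for cKO and 6.07 ± 0.962 CPM for WT (−0.56, SE 0.22, adjusted p = 0.23). Genes near 0 included Twf2, a twinfilin that binds capping protein (0.07, SE 0.14), and Plekho1, another capping protein binder (0.02, SE 0.12). Of the gelsolin relatives, Flii was at 210 ± 14.4 CPM for cKO and 185 ± 12.9 CPM for WT (0.18, SE 0.10, adjusted p = 0.40), and Scin had 0 counts in all libraries.

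The profile of Mtpn over the 7 libraries was closest to those of Gng12, Cbfb, Ywhab, Ids and Prps2. Likeness was the root mean square difference of log2 CPM, each gene centred on its own mean, among 9720 named genes whose log2 CPM averaged 1 or more. It ranged from 0.080 for Gng12, a G protein gamma subunit, to 0.099 for Prps2, an enzyme of nucleotide synthesis. Gng12 was at 62.8, 65.5, 69.7 and 62.9 CPM in the cKO mice, against 41.7, 36.6 and 41.8 CPM in the WT mice. Gng12 (log2 fold change 0.70), Cbfb (0.57), Ywhab (0.62) and Prps2 (0.68) passed the threshold, and Ids (0.64, SE 0.13, adjusted p = 0.071) did not. Gng12, Cbfb and Ywhab each lost the call in 5 of 18 alternatives, and Prps2 in 7 of 18. Because these genes were picked for their likeness to Mtpn over the same libraries, which stand apart by group for Mtpn, their own differences between the groups follow largely from the choice and support nothing.

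**Figure D5:**
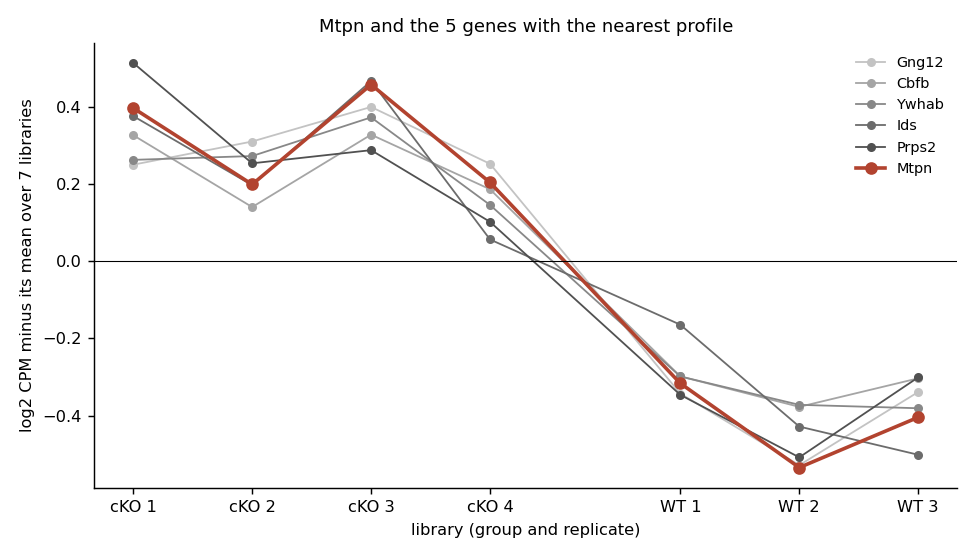
Log2 CPM minus the mean over the 7 libraries for Mtpn (red) and the 5 genes with the nearest profile (grey); lines join the values of 1 gene and imply no order of the libraries. By the choice of genes like Mtpn, all cKO values lie above 0 and all WT values below 0, with Mtpn highest in cKO replicate 3 and lowest in WT replicate 2.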

How the data were processed

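The authors deposited 1 table of raw counts per gene symbol, with a column for each of 7 mice. The submitters' processing notes name DRAGEN and GRCm39. Which annotation, counting rule and strand setting were applied is not given in the sources used here. Genes were kept with filterByExpr of edgeR 4.0.16 (least count 10, least total 15; limma 3.58.1, R 4.3.3), which left 11991. The 4 cKO and 3 WT libraries were compared with TMM factors and the robust quasi-likelihood F test, without covariates, and p-values were adjusted by Benjamini-Hochberg over all genes tested (threshold 0.05). Standard errors were obtained from the fold change and F. For log2 CPM the prior count was 2. No library repeated another of its group: their counts differed with a chi-square of 18.8 to 98.3 per degree of freedom. Lengths, GC content and shared windows came from GENCODE M21 transcripts (GRCm38), with values for 99.3% of genes tested. Of the 41 further listed genes 33 matched by current symbol and 8 by a synonym.

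The members, the gene lists and the alternatives were chosen with earlier results of these data known. Named genes are the members, Srgap2, Tmem119, listed genes past the threshold or the 6 with the smallest p, and the 5 nearest profiles; Capza3, Add2, Twf2, Plekho1, Flii and Scin were chosen after their values were seen. The fit was tested on simulated data. Alternatives were RLE and upper-quartile factors, DESeq2 1.42.0, limma-voom, no robust option, no filter, 1 CPM in at least 3 libraries, each library left out, blocks for replicate number and mouse-number run, Xist as covariate, and loess offsets (span 0.3) for GC content and length.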

Additional observations from a re-analysis of the deposited data

How the results depend on the processing

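All 10 members kept the direction of their log2 fold change in each of 18 alternatives. In 180 comparisons of a member with its reported result, 5 lost the call, all of them Mtpn with a library left out, and 19 gained one. The count of members past the threshold, 1 as reported, was 2 without a filter, 3 with the mouse-number block (Capzb, Capza1 and Mtpn), 4 with DESeq2, 5 with the Xist covariate and 5 with the GC content and length offsets, and it ranged from 0 to 3 when a library was left out. The count over all genes, 43 as reported, was 89, 170, 538, 1056 and 659 under those alternatives in that order, and from 4 to 142 with a library left out. The members' median of 0.41 ranged from 0.36 to 0.42 with a library left out and from 0.39 to 0.43 otherwise. With the replicate number as a block, 4 members and 288 genes passed (Capza1, Capzb and Capg besides Mtpn, and Sh3kbp1 and Tmod3 of the further listed genes), but the numbers are not shown to pair the mice: deviations from the group means of same-numbered libraries correlated at 0.39, 0.069 and −0.17. Levels per kb rest on the transcript length: with the median length in place of the longest, 18 of 20 moved by more than the SD between mice, and Svil and Gsn changed places in WT. The causes of these shifts were not tested. With 3 WT mice, the intervals of Gsn, Eps8 and Add3 include 0 as well as values as high as that of Capza1.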
